A study of Mus musculus with 10 samples.

Results

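The 44 antioxidant genes described here are the rows of the deposited gene table whose mouse symbols are on a list of regulators, superoxide dismutases and catalase, glutathione genes, thioredoxin genes, NADPH-supplying enzymes, and haem and iron genes. They were found as 44 of the table's 55471 gene rows, 1 row to a symbol. The table holds RNA-seq of whole brain from 10 Swiss Webster mouse pups, labelled WT, after hypoxia-ischemia, a combined lack of oxygen and blood flow to the brain. The series text gives postnatal day 5, which can be read as the age at collection or at injury. The pups of libraries 1 to 5 had the injury and no treatment, and those of libraries 6 to 10 had the injury and allopregnanolone, a neurosteroid that acts on GABA-A receptors. All 10 pups carried the injury, so no value here compares an injured brain with an uninjured one. The sources used here do not give the dose, route or timing of allopregnanolone. The untreated group is labelled only as having no treatment, so the drug cannot be told apart from its vehicle and handling. In whole tissue, fewer cells of a type and less RNA per cell cannot be told apart.

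Cells remove superoxide with superoxide dismutases, which make hydrogen peroxide, and remove the peroxide with catalase, glutathione peroxidases and peroxiredoxins. Glutathione is built from glutamate, cysteine and glycine, and the cystine importer xCT feeds cysteine to it. Oxidised glutathione and thioredoxin are returned to use with electrons from NADPH, much of which comes from the pentose phosphate pathway. Free iron turns peroxide into the far more reactive hydroxyl radical, so iron storage in ferritin and haem breakdown belong to the same defence. Much of the set is under the transcription factor NRF2, which KEAP1 marks for degradation until oxidants or electrophiles modify KEAP1. The immature brain is known as poor in peroxide-removing capacity and rich in free iron.

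The 4 glutathione peroxidases differ at the catalytic residue, and their coding sequences show it. Each line gives 51 bases of the coding strand from the GENCODE M21 transcripts, 5′ to 3′, with the codon of the catalytic residue in capitals. A TGA inside the reading frame is read as selenocysteine in this family, and TGC is a cysteine codon.
Gpx1: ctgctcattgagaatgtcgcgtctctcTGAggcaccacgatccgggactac
Gpx3: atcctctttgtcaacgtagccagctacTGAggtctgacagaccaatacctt
Gpx4: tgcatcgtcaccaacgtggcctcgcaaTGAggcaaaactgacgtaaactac
Gpx8: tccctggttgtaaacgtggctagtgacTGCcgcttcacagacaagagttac
Gpx1, Gpx3 and Gpx4 hold TGA at codons 47, 73 and 129 of the transcripts used, and Gpx8 holds TGC at codon 79.

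NRF2 binds the antioxidant response element, whose core is TGACNNNGC, and the RefSeq promoter windows on GRCm38.p6 were searched for it on both strands. A window runs from 250 bases before to 50 bases after a gene's start. Of the 38 members that have a window, 10 held the core (26.3%), against 14.0% of the 27025 genes with a window. They were Nfe2l2, Sod1, Gclm, Gstm5, Gstm7, Mgst1, Prdx1, Txnrd1, Srxn1 and G6pdx. Txnrd1 held it in 1 of 3 windows, and Gstm7 and Mgst1 each in 1 of 2. In Srxn1 the core lies 28 bases after the start. Sod3, Gclc, Gsr, Gsta4, Prdx6 and Hmox1 had no window and were not searched. Stretches of 29 bases follow for Srxn1, the only gene of the 10 that passed the expression test. They are also given for the regulator and 3 enzymes described in full below. The core is in capitals, and each is shown on the strand on which the core reads forward.
Srxn1: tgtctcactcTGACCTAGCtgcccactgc
Nfe2l2: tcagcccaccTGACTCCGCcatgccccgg
Gclm: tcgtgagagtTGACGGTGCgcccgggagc
Txnrd1: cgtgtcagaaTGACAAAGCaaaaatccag
G6pdx: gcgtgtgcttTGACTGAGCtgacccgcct
In GRCm38.p6 these lie at chr2:152105542-152105570, chr2:75704885-75704913, chr3:122245413-122245441, chr10:82859104-82859132 and chrX:74428919-74428947. The stretch of G6pdx is on the plus strand, and the other 4 are on the minus strand. A match of these letters is a description of the window and not evidence of binding.

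With allopregnanolone, 6 of the 44 members rose and 2 fell, and none moved by more than 1.5-fold. Gsta4, Srxn1, Prdx5, Slc3a2, Fth1 and Gpx4 rose by 1.12-fold to 1.38-fold, and Slc7a11 and Blvrb were lower by 1.20-fold and 1.46-fold. All 44 had at least 10 counts in at least 5 libraries and were tested with edgeR's quasi-likelihood test over 17101 genes, with a call at a Benjamini-Hochberg adjusted p under 0.05. The share of members called was 18.2%, against 11.3% of all genes tested. For higher genes it was 13.6% against 6.61%, and for lower genes 4.55% against 4.65%. The median log2 fold change was 0.07 over the members and -0.0046 over all genes, and 25 members had a positive and 19 a negative value. A further 14 members reached an unadjusted p under 0.05 without passing the adjusted threshold. The share of all genes with such an unadjusted p was not counted, so this number does not set the members apart. The 8 called genes lie, in GRCm38 with GENCODE M21 bounds, at chr9:78182774-78209349 (Gsta4), chr2:152105516-152111376 (Srxn1), chr19:6906697-6910106 (Prdx5), chr19:8706882-8723369 (Slc3a2), chr19:9980598-9985098 (Fth1), chr10:80047166-80056439 (Gpx4), chr3:49892526-50443614 (Slc7a11) and chr7:27447978-27466144 (Blvrb). On either side of the threshold stood Slc7a11 (adjusted p = 0.0481) and Cat (0.0506), followed by Gclm (0.0564) and Gstm5 (0.0571).

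**Figure D1:**
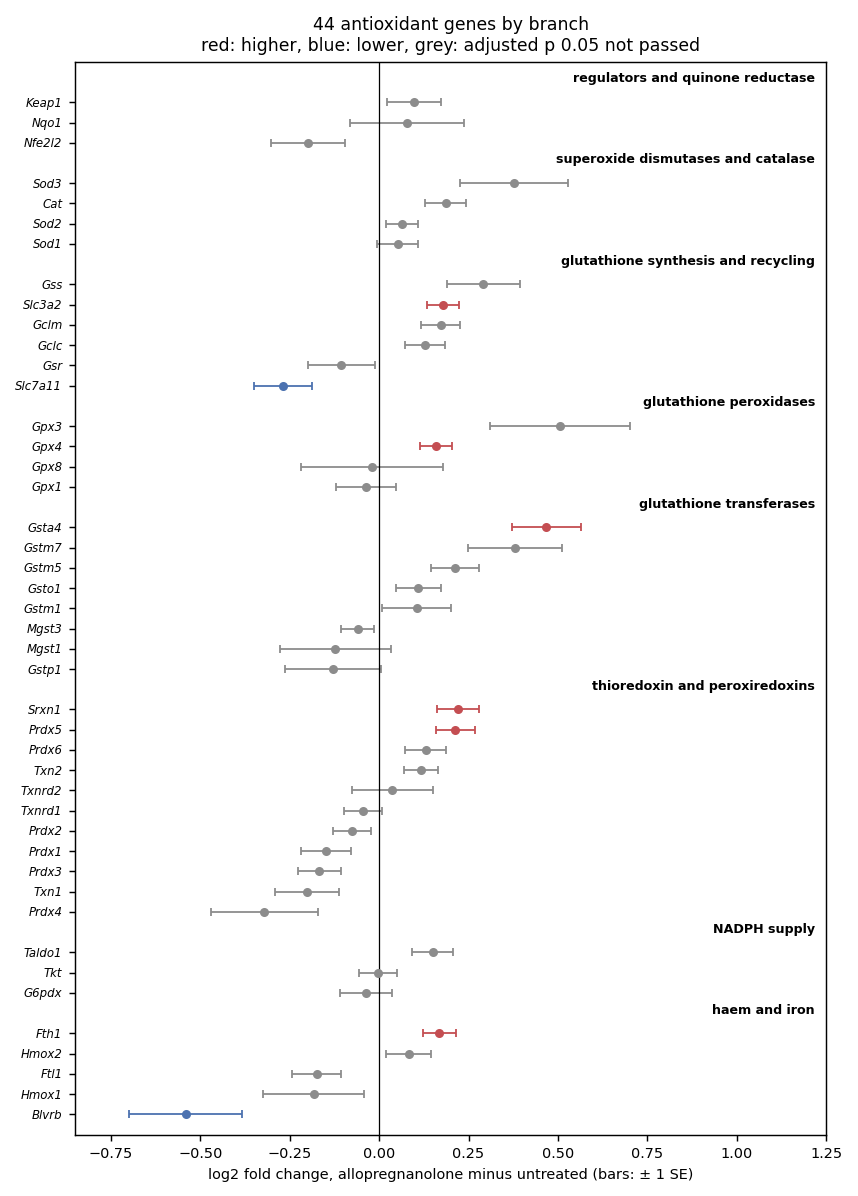
Log2 fold change (allopregnanolone minus untreated, x axis) of each of the 44 genes (y axis), grouped by branch, with bars of ± 1 standard error from edgeR; red genes are higher, blue genes lower and grey genes did not pass an adjusted p of 0.05. The 8 coloured genes are spread over 5 branches, and Gsta4 at 0.47 and Blvrb at -0.54 lie farthest from 0 among them.

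These calls rest on small differences. Library totals ran from 18656836 to 34270723 counts, with treated library 6 the deepest. With library totals in place of TMM (trimmed mean of M-values) scaling, the median of all genes moved to -0.06, and 1 member rose and 3 fell. The 1 was Gsta4 and the 3 were Slc7a11, Blvrb and Prdx3, against 4.58% of all genes higher and 8.48% lower. Raising the count minimum to 100 left 43 members, of which 9 passed (20.9%), against 16.0% of all genes. In 5 members every treated library lay above every untreated one, and in 1 every treated library lay below. The same was seen in 5.44% of all genes above and 4.2% below. The 5 were Slc3a2, Gss, Gpx4, Prdx5 and Fth1, and the 1 was Ftl1. On library totals those counts were 0 and 1. The library names of untreated libraries 1 to 3 begin differently from those of the other 7. Within the other 7, comparing untreated libraries 4 and 5 with the 5 treated ones, no member and 105 of all genes passed. In that fit 10 members had an unadjusted p under 0.05, with the share of all genes not counted. All 8 called members kept their direction there.

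The regulators did not pass the test. Nfe2l2, which encodes NRF2, had 22.7, 16.1, 17.6, 18.2 and 14.6 CPM (the gene's counts relative to its library's TMM-scaled total) in untreated libraries 1 to 5. It had 16.4, 15.4, 15.9, 14.997 and 15.1 CPM in treated libraries 6 to 10. Its difference on the log2 scale was -0.20 ± 0.10 (SE, n = 5 and 5; adjusted p = 0.235), and untreated library 1 was the highest of the 10. Keap1, the adaptor that holds NRF2 back, was at 39.5, 40.1, 41.9, 37.1 and 47.2 CPM in the untreated libraries and 43.6, 37.6, 47.3, 47.6 and 44.2 CPM in the treated ones, with overlapping groups (adjusted p = 0.434). Nqo1, a quinone reductase widely used as a readout of NRF2, was the member with the lowest CPM. It had 2.30, 2.67, 2.61, 2.68 and 2.23 CPM untreated and 2.95, 2.03, 3.08, 2.77 and 2.30 CPM treated, a log2 difference of 0.08 ± 0.16 (adjusted p = 0.798). Of the members that textbooks list as NRF2 targets, 8 were picked: Nqo1, Hmox1, Gclc, Gclm, Slc7a11, Txnrd1, Srxn1 and G6pdx. Among them Srxn1 rose, Slc7a11 fell and 6 did not pass, where 6.61% of all genes rose and 4.65% fell. No rule for picking the 8 is given, and they do not stand for the whole set, much of which is under NRF2. Another pick could give other counts. Of the called members outside the 8, which may be NRF2 targets too, Gsta4, Prdx5, Slc3a2, Fth1 and Gpx4 rose and Blvrb fell.

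None of the 4 superoxide and catalase genes passed, and all 4 had a log2 fold change above 0, although Sod1 was at -0.0080 with library totals. Catalase (Cat), which breaks down hydrogen peroxide in peroxisomes, came closest. It was at 69.8, 72.2, 74.3, 68.5 and 78.2 CPM in the untreated libraries and 92.8, 80.8, 78.0, 80.1 and 81.4 CPM in the treated ones. Treated library 8 lay just below untreated library 5, the only crossing, and the difference was 0.19 ± 0.06 (adjusted p = 0.0506). Cat passed in 6 of the 26 alternative fits, DESeq2 among them. Sod2, the mitochondrial manganese enzyme, was at 148, 155, 151, 153 and 165 CPM in the untreated libraries and 165, 162, 154, 163 and 162 CPM in the treated ones (adjusted p = 0.385). The cytosolic Sod1 differed by 0.05 ± 0.06 (adjusted p = 0.599). Sod3, the secreted enzyme, ranged from 7.53 to 13.5 CPM untreated and from 12.6 to 18.7 CPM treated, a difference of 0.38 ± 0.15 (adjusted p = 0.121).

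The 2 chains of the cystine-glutamate exchanger moved in opposite directions. Slc7a11, the light chain that carries cystine, had 24.4, 20.5, 25.3, 23.9 and 23.8 CPM untreated and 22.3, 18.5, 20.5, 17.3 and 19.3 CPM treated. Untreated library 2 lay below treated library 6 and level with treated library 8, and the means were 23.6 ± 1.82 and 19.6 ± 1.90 (SD, n = 5 each). Slc7a11 fell by 0.27 on the log2 scale (SE 0.08; adjusted p = 0.0481). Slc3a2, the heavy chain, which also serves other amino acid transporters, had 112, 111, 106, 104 and 109 CPM untreated and 126, 119, 117, 124 and 127 CPM treated. All 5 treated libraries lay above all 5 untreated ones, and Slc3a2 rose by 0.18 ± 0.04 on the log2 scale (adjusted p = 0.0210). The call of Slc7a11 was lost on leaving out untreated library 1, 3, 4 or 5 or treated library 7, 8, 9 or 10 (adjusted p = 0.0643 to 0.108). That of Slc3a2 was lost without untreated library 3 or 4 or treated library 10 (adjusted p = 0.0510 to 0.0604).

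A stretch of 373 bases in the longest annotated Slc7a11 transcript, of 9223 bases, is 96.0% identical to the alpha-tubulin gene Tuba1a. Tuba1a stood at 4189 ± 152 CPM untreated and 3316 ± 87.6 CPM treated (adjusted p = 0.00138), lower with treatment as Slc7a11 was. The same stretch is 96.2% identical to Tuba1b, at 822 ± 54.0 CPM untreated and 778 ± 55.6 CPM treated (adjusted p = 0.438), and 95.4% identical to Tuba1c, at 202 ± 33.0 and 204 ± 57.0 CPM (adjusted p = 0.962), neither of which passed. Nothing in the sources used here says how reads that fit both genes were assigned, which leaves the level of Slc7a11 uncertain, and the part of such reads in its difference was not tested.

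The ratio of 2 genes within a library does not depend on how libraries are scaled. Slc3a2 over Slc7a11 was 4.60, 5.39, 4.17, 4.34 and 4.59 in the untreated libraries and 5.65, 6.45, 5.70, 7.16 and 6.58 in the treated ones. Every treated ratio lay above every untreated one, with means of 4.62 ± 0.467 and 6.31 ± 0.637 (SD). The catalytic and modifier subunits of glutamate-cysteine ligase, the first enzyme of glutathione synthesis, gave no such separation. Gclc over Gclm was 1.20 ± 0.0897 untreated and 1.17 ± 0.0662 treated, with overlapping groups. The 6 ratios computed were chosen with the genes' values known, and they are given without a test. Besides the ratios of ferritin chains and of Prdx5 to Prdx3 given below, Gpx4 over Gpx1 ran from 1.91 to 2.39 untreated and from 2.23 to 3.05 treated, and Srxn1 over Prdx3 from 0.505 to 0.697 and from 0.691 to 0.832, both with overlap.

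Gclc itself was at 49.9, 48.0, 45.2, 49.4 and 53.6 CPM in the untreated libraries and 54.5, 57.2, 49.7, 52.7 and 54.8 CPM in the treated ones (adjusted p = 0.155). Gclm was at 39.1, 42.0, 37.8, 45.0 and 40.9 CPM in the untreated libraries and 46.1, 48.0, 47.2, 44.5 and 44.9 CPM in the treated ones, a difference of 0.17 ± 0.05 (adjusted p = 0.0564). For Gclm, treated libraries 9 and 10 lay just under untreated library 4, and the other 3 treated libraries lay above all untreated ones. Gss, which adds glycine to complete glutathione, ranged from 6.84 to 8.52 CPM untreated and from 8.58 to 10.7 CPM treated. Its groups did not overlap, but its difference of 0.29 ± 0.10 did not pass (adjusted p = 0.0788). Gsr, which reduces oxidised glutathione with NADPH, differed by -0.11 ± 0.09 (adjusted p = 0.510). Summed over the 6 genes of synthesis and recycling, the branch ran from 265 to 279 CPM untreated and from 275 to 298 CPM treated.

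**Figure D2:**
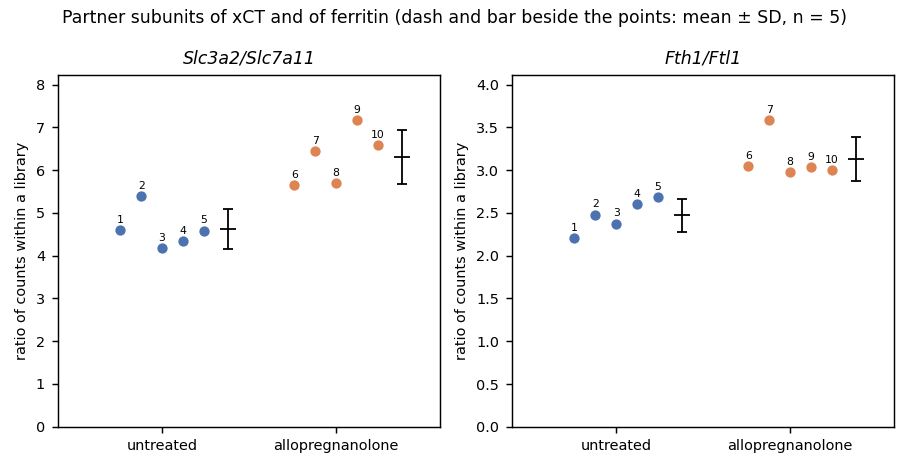
Ratio of counts within each library (y axis) in the untreated and treated groups (x axis). The left panel is the heavy over the light chain of the cystine-glutamate exchanger (Slc3a2/Slc7a11). The right panel is ferritin heavy over light chain (Fth1/Ftl1). Points are libraries with their numbers, and the dash with its bar is the mean ± SD of 5. In both panels all treated libraries lie above all untreated ones.

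Of the glutathione peroxidases, Gpx4 alone passed. Gpx4 reduces lipid hydroperoxides within membranes and is the enzyme that holds back ferroptosis, an iron-dependent form of cell death. It was at 126, 124, 115, 124 and 119 CPM in the untreated libraries and 132, 132, 141, 137 and 139 CPM in the treated ones, with no overlap between the groups. The means were 122 ± 4.26 and 136 ± 4.15 (SD, n = 5 each), a rise of 0.16 ± 0.04 on the log2 scale (adjusted p = 0.0335). Without untreated library 1, 3, 4 or 5 or treated library 8, 9 or 10 the adjusted p reached at most 0.0998 and the call was lost, and with library totals it was 0.181. The expressed copy Gpx4-ps2 is 99.7% identical over 73.7% of the Gpx4 transcript and had 14.9 CPM on average, so part of the reads could belong to either. Gpx3, the secreted peroxidase, ranged from 25.1 to 44.3 CPM untreated and from 28.6 to 65.7 CPM treated, the widest spread of the 4 (0.51 ± 0.20; adjusted p = 0.111). Gpx1, the main cytosolic enzyme, differed by -0.04 ± 0.08 (adjusted p = 0.827), and Gpx8, the cysteine-type enzyme of the endoplasmic reticulum, by -0.02 ± 0.20 (adjusted p = 0.964).

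Glutathione transferases couple glutathione to electrophiles, and 1 of 8 passed. Gsta4, which acts on 4-hydroxynonenal, an aldehyde from oxidised lipids, had 14.6, 14.96, 13.2, 17.4 and 14.95 CPM untreated and 23.7, 20.7, 19.8, 17.1 and 22.4 CPM treated. Only treated library 9 lay below an untreated library, library 4. The means were 15.02 ± 1.504 and 20.7 ± 2.53 (SD, n = 5 each), and Gsta4 rose 1.38-fold (log2 0.47 ± 0.10; adjusted p = 0.00924). Its call held in all 10 fits that each left out 1 library and in 22 of the 26 alternatives, more than for any other member. The mu-class genes Gstm7 (0.38 ± 0.13; adjusted p = 0.0771), Gstm5 (0.21 ± 0.07; adjusted p = 0.0571) and Gstm1 (0.10 ± 0.10; adjusted p = 0.525) had positive values below the threshold. The pi-class Gstp1 spread from 51.2 to 86.0 CPM untreated and from 56.3 to 65.3 CPM treated (adjusted p = 0.581). The copies Gstp2 and Gstp-ps, 98.2% and 97.6% identical to Gstp1 where they align, could share its reads. Gsto1, Mgst1 and Mgst3 differed by 0.11 ± 0.06, -0.12 ± 0.16 and -0.06 ± 0.05, and none passed (adjusted p = 0.273, 0.662 and 0.442).

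**Figure D3:**
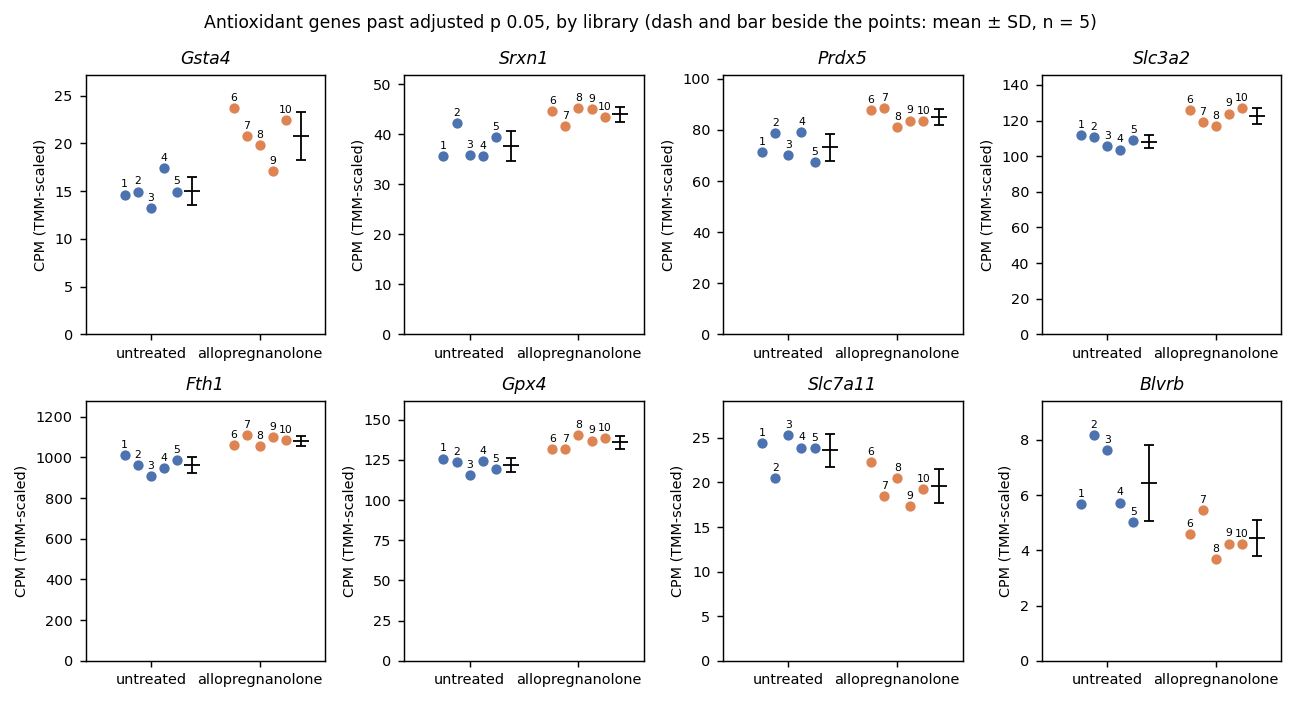
TMM-scaled CPM (y axis, from 0) of the 8 genes past the threshold in each library (points with library numbers), untreated at the left and allopregnanolone at the right of each panel; the dash with its bar is the mean ± SD of 5. Prdx5, Slc3a2, Fth1 and Gpx4 show no overlap between groups, and in Gsta4, Srxn1, Slc7a11 and Blvrb some libraries cross.

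In the thioredoxin branch 2 of 11 rose, 9 did not pass, and the median log2 fold change was -0.05. Prdx5, a peroxiredoxin found in mitochondria, peroxisomes and cytosol, had 71.2, 78.7, 70.1, 79.1 and 67.4 CPM untreated and 87.8, 88.4, 81.2, 83.6 and 83.6 CPM treated. The groups did not overlap, with means of 73.3 ± 5.29 and 84.9 ± 3.08 (SD), and Prdx5 rose 1.16-fold (adjusted p = 0.0253). Srxn1, sulfiredoxin, repairs peroxiredoxins whose cysteine has been overoxidised. It had 35.7, 42.2, 35.8, 35.6 and 39.4 CPM untreated and 44.6, 41.7, 45.1, 44.9 and 43.4 CPM treated. Treated library 7 lay just under untreated library 2, and Srxn1 rose 1.17-fold (log2 0.22 ± 0.06; adjusted p = 0.0279). Prdx5 was not called without untreated library 1 or 3 or treated library 7 (adjusted p = 0.0615 to 0.0739), and Srxn1 not without untreated library 1, 3 or 4 or treated library 8 or 9 (0.0569 to 0.0751). Exons of Trmt112 on the opposite strand overlap 19.1% of the Prdx5 exons. The sources used here do not say whether the counting used strand.

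The mitochondrial peroxiredoxin Prdx3 had 70.6, 60.6, 63.3, 68.5 and 62.5 CPM untreated and 55.4, 55.7, 54.3, 61.8 and 62.9 CPM treated, a difference of -0.17 ± 0.06 that did not pass (adjusted p = 0.0897). The ratio of Prdx5 to Prdx3 was 1.13 ± 0.109 untreated and 1.47 ± 0.123 treated, and the groups did not overlap. Txnrd1, the cytosolic thioredoxin reductase, was at 48.2, 52.2, 50.1, 45.1 and 49.9 CPM in the untreated libraries and 50.3, 44.8, 46.2, 48.2 and 48.2 CPM in the treated ones (adjusted p = 0.623). Its mitochondrial counterpart Txnrd2 differed by 0.04 ± 0.11 (adjusted p = 0.866). The cytosolic thioredoxin Txn1 differed by -0.20 ± 0.09 and the mitochondrial Txn2 by 0.12 ± 0.05, and neither passed (adjusted p = 0.164 and 0.135). Prdx1 (-0.15 ± 0.07), Prdx2 (-0.08 ± 0.05), Prdx4 of the endoplasmic reticulum (-0.32 ± 0.15) and Prdx6 (0.13 ± 0.06) did not pass, with adjusted p of 0.193, 0.395, 0.185 and 0.163. Summed over the 11 genes, the branch was at 665 ± 25.9 CPM untreated and 671 ± 13.7 CPM treated.

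No NADPH-supplying member passed. G6pdx, the entry enzyme of the pentose phosphate pathway, was at 36.6, 31.4, 31.5, 32.9 and 34.1 CPM in the untreated libraries and 35.5, 30.4, 28.2, 35.7 and 32.4 CPM in the treated ones, with both groups covering much the same range (-0.04 ± 0.07; adjusted p = 0.798). Taldo1 and Tkt, the transaldolase and transketolase of the pathway's non-oxidative arm, differed by 0.15 ± 0.06 (adjusted p = 0.103) and 0.00 ± 0.05 (adjusted p = 0.972). The 3 genes summed to 207 ± 7.72 CPM untreated and 209.7 ± 13.1 CPM treated.

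In the haem and iron branch Fth1 rose, Blvrb fell and 3 genes did not pass. Fth1, the ferritin heavy chain with the ferroxidase activity that loads iron, had 1011, 962, 907, 949 and 985 CPM untreated and 1060.3, 1111, 1056, 1100.1 and 1083 CPM treated. The groups did not overlap, and Fth1 rose 1.12-fold (adjusted p = 0.0334), with means of 963 ± 38.9 and 1082 ± 24.2 CPM (SD). Ftl1, the light chain, had 457, 388, 382, 365 and 366 CPM untreated and 348, 310.3, 355, 362 and 361 CPM treated. All treated libraries lay below all untreated ones, and the difference of -0.17 ± 0.07 did not pass (adjusted p = 0.112). Fth1 over Ftl1 was 2.21, 2.48, 2.38, 2.60 and 2.69 untreated and 3.05, 3.58, 2.98, 3.04 and 3.00 treated, again without overlap. Ftl1-ps1, at 22.3 CPM, is 99.6% identical to Ftl1 over 94.0% of its transcript, so the 2 could share reads. The call of Fth1 was lost without untreated library 2, 3 or 4 or treated library 7, 8, 9 or 10 (adjusted p = 0.0529 to 0.0924).

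Blvrb, a biliverdin reductase prominent in red blood cells, had 5.66, 8.19, 7.64, 5.73 and 5.03 CPM untreated and 4.59, 5.46, 3.68, 4.25 and 4.22 CPM treated. Treated library 7 lay above untreated library 5, and the means were 6.45 ± 1.38 and 4.44 ± 0.659 (SD). Blvrb fell by 0.54 on the log2 scale (SE 0.16; adjusted p = 0.0410), and the call was lost without untreated library 2, 3 or 4 or treated library 6, 8, 9 or 10 (0.0575 to 0.0995). The summed red blood cell markers ran from 850.4 to 1733 CPM in the untreated libraries and from 1210.2 to 1756 CPM in the treated ones, and 1 of 8 tested rose. With the mean log2 CPM of the 8 tested markers as a covariate, Blvrb was at -0.70 (adjusted p = 0.0533). Blvra, the other biliverdin reductase, is not among the members, and it differed by 0.04 ± 0.14 without passing (adjusted p = 0.886). Hmox1, the inducible haem oxygenase that opens the haem ring, was at 10.8, 7.76, 6.85, 6.89 and 6.99 CPM in the untreated libraries and 7.28, 7.43, 6.06, 7.80 and 6.09 CPM in the treated ones. Apart from untreated library 1, its groups covered much the same range (-0.18 ± 0.14; adjusted p = 0.440). The constitutive Hmox2 differed by 0.08 ± 0.06 (adjusted p = 0.428), and 40.2% of its exons overlap Cdip1 on the opposite strand, a gene that rose 1.23-fold (adjusted p = 0.00611).

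Levels can be compared between genes only per length, here as TPM, in which counts are divided by the length of the annotated exons before scaling. That length joins the exons of all annotated transcripts and can far exceed a single one. It was 3970 bases for Sod1 and 3050 for Prdx2, whose longest protein-coding transcripts have 641 and 1612 bases. The order of genes below therefore depends on this choice of length. On this scale the 2 ferritin chains led the 44 genes in the untreated group, Ftl1 at 808 TPM and Fth1 at 766 TPM. In the treated group the means were 672 TPM for Ftl1 and 808 TPM for Fth1, so with these lengths their order was exchanged. Next in the untreated group came the microsomal transferase Mgst3 at 278 TPM, Gpx4 at 195, and Prdx2 at 126. Nqo1, at 4.45 TPM, and Gss, at 3.63 TPM, stood last.

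Untreated library 1 was the highest of the 10 libraries for 9 members, Nfe2l2, Gsr, Gpx1, Prdx1, Prdx3, Prdx4, G6pdx, Hmox1 and Ftl1. The share of all genes that were highest there was not counted, so this number does not set the members apart. Gpx1, for example, stood there at 65.8 CPM against 46.2 to 59.1 CPM in the other libraries. Untreated library 1 was also the highest for the summed activated myeloid markers, such as Clec7a, Cybb and Cd68. These stood at 281 CPM in untreated library 1, 121 to 174 CPM in untreated libraries 2 to 5 and 96.4 to 125 CPM in the treated libraries, and 9 of 12 tested fell. This excess was not particular to that list. Microglia markers summed to 457 CPM in untreated library 1, 321 to 421 CPM in untreated libraries 2 to 5 and 334 to 356 CPM in the treated libraries. Proliferation markers summed to 131 CPM, 80.1 to 96.6 CPM and 60.7 to 66.9 CPM in the same order. The part of myeloid, microglial or dividing cells in the 9 genes' values was not tested. None of the 9 passed the test.

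**Figure D4:**
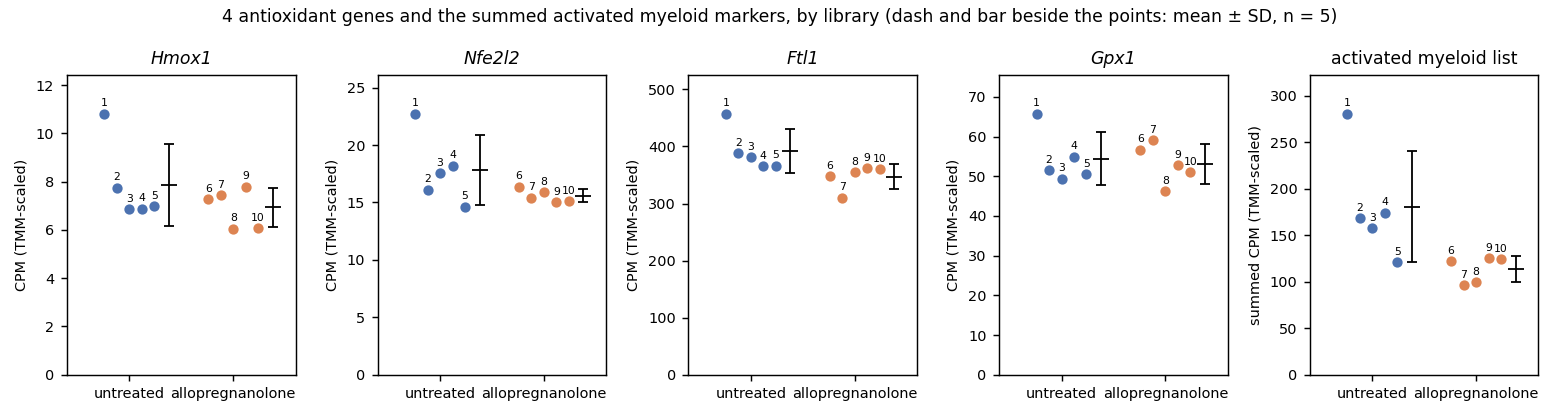
TMM-scaled CPM (y axis, from 0) of Hmox1, Nfe2l2, Ftl1 and Gpx1 and the summed CPM of the activated myeloid marker list, by group (x axis), with library numbers at the points and the mean ± SD of 5 as a dash with its bar. Untreated library 1 is the highest point in every panel. The genes shown all belong to the members that were highest in that library, so their panels could not show otherwise.

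**Figure D5:**
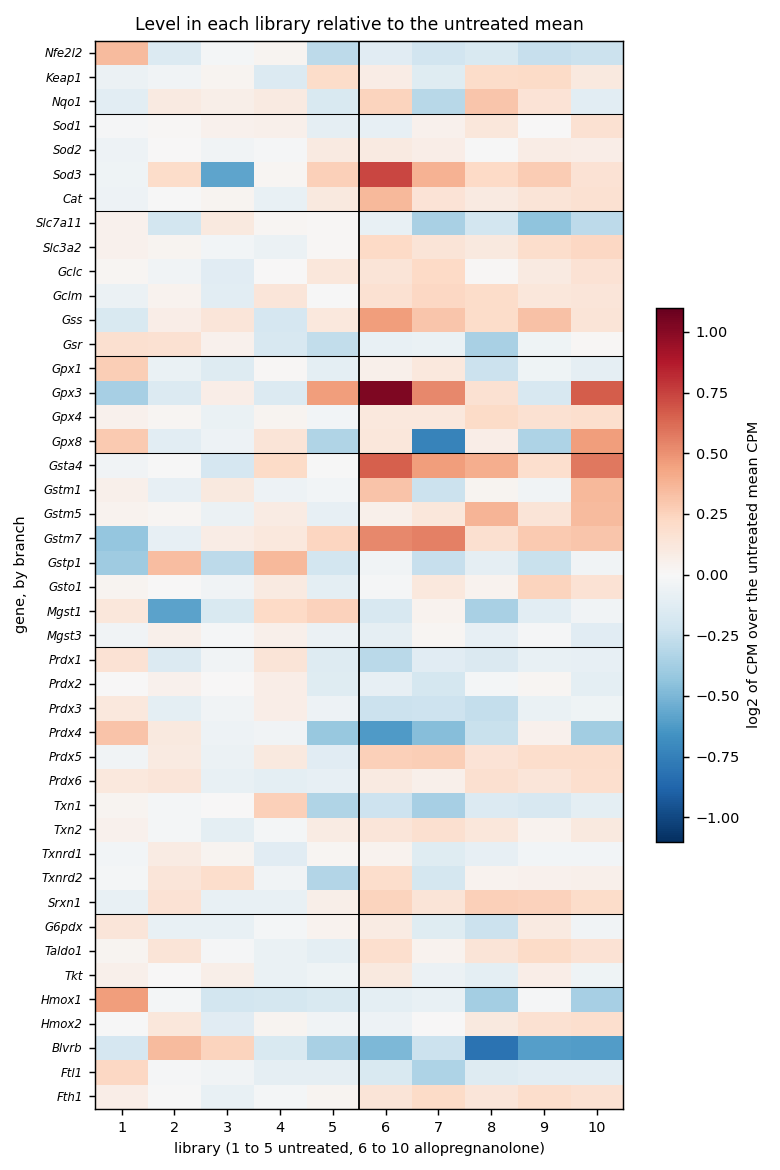
Log2 of each gene's CPM over its untreated mean (colour, red above and blue below) for the 44 genes (rows, ordered by branch, with lines between branches) in the 10 libraries (columns, untreated 1 to 5 at the left of the line). No branch is of one colour across all treated libraries, and neighbouring genes such as Slc7a11 and Slc3a2 differ in colour there.

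Markers of other cell types differed between the groups too. Oligodendrocyte and myelin markers summed to 1226 to 2212 CPM untreated and 3349 to 4536 CPM treated, and 14 of 14 rose. Astrocyte markers summed to 3437 to 4118 CPM untreated and 4244 to 4686 CPM treated, and 8 of 14 rose. Immature neuron markers fell in 8 of 10 and proliferation markers in 7 of 10, while microglia markers rose in 1 and fell in 2 of 14, and 4 of 12 endothelial markers rose. Neuron markers rose in 4 and fell in 1 of 12. Midbrain dopamine neuron markers rose in 6 of 8 tested, with a median log2 fold change of 1.78. They summed to 14.2 to 32.9 CPM untreated, to 122, 102 and 69.2 CPM in treated libraries 6, 7 and 9, and to 20.7 and 22.3 CPM in treated libraries 8 and 10. Choroid plexus markers rose in 2 of 12. Fibroblast markers stood at 1547 CPM in treated library 6 and at 698 to 909 CPM in the other 9, and none of 12 passed. No marker of these lists was at 0 in all libraries. Covariates were the mean log2 CPM over a list's tested markers, not the sums given here. With the astrocyte mean as a covariate no member passed and 33 of all genes did. With the myelin mean no member and none of all genes passed. The sums of both lists separate the groups. If the fitted means do too, such a fit has little left with which to tell treatment from composition. With the astrocyte mean in the fit, Gsta4 was at 0.32 and Slc7a11 at -0.38, against 0.47 and -0.27 without it. All 8 called members kept their direction in these fits, and the part of cell composition in their differences was not tested.

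Among 92 further genes of the same pathways, 86 gene rows were tested, 6 rose and 2 fell, with a median log2 fold change of 0.04. The 9.30% called was below the 11.3% of all genes, with 6.98% against 6.61% higher and 2.33% against 4.65% lower, so the count does not set these genes apart. None of 21 other glutathione genes passed. Of 19 other thioredoxin and methionine sulfoxide genes 3 rose. Selenop, the selenium carrier that supplies selenoprotein synthesis, rose 1.43-fold (adjusted p = 0.000324), its means being 195 ± 15.5 and 280.2 ± 13.0 CPM (SD), with untreated libraries at 179.7 to 219 CPM and treated ones at 264 to 297 CPM. Txnip, which binds and inhibits thioredoxin, rose 1.40-fold from 16.6 ± 1.72 to 23.2 ± 3.12 CPM (adjusted p = 0.00914). Nxn, nucleoredoxin, rose 1.33-fold (adjusted p = 0.0177).

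Of 14 rows for other NADPH genes, which include 2 for Nnt, 1 fell. This was Idh1, the cytosolic isocitrate dehydrogenase that makes NADPH, at 61.8 ± 4.68 CPM untreated and 48.0 ± 4.38 CPM treated (SD; adjusted p = 0.00716), 1.29-fold lower. Of 14 other haem and iron genes 1 rose, Alas1, which starts haem synthesis, from 60.1 ± 3.34 to 73.3 ± 1.49 CPM (adjusted p = 0.00323). Of 18 other NRF2 targets and partners 2 rose and 1 fell. Ephx1, the microsomal epoxide hydrolase, rose 1.44-fold (adjusted p = 0.00323) and the exporter Abcc4 1.34-fold (adjusted p = 0.0433). Bach2, a relative of the BACH1 repressor that competes with NRF2 for its binding sites, fell from 20.02 ± 0.914 CPM in untreated to 12.4 ± 1.80 CPM in treated libraries, 1.62-fold (adjusted p = 0.00107).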

How the data were processed

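RNA was extracted from whole brain with the RNeasy Mini Plus kit, and stranded libraries were made from total RNA with the NEBNext Ultra II Directional kit, per the labels' protocols. Partek and mm10 appear in the submitters' processing notes. The sources used here give no aligner, annotation, counting model or strand setting. The authors deposited 1 table of expected counts per gene, called normalized in its name. Its columns sum to 18656836 to 34270723, and 86.8% to 87.6% of values above 0 are exactly whole (tolerance 0), so they were treated as estimated read counts and rounded. Of 55471 identifiers, 55230 were in GENCODE M21, which gave names and coordinates.

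Genes with at least 10 counts in at least 5 of 10 libraries were kept, 17101 in all, which hold 99.9% of the counts. They were fitted with edgeR 4.0.16 (TMM, glmQLFit, glmQLFTest, two-sided, R 4.3.3), with 2 groups of 5 and no covariate. Benjamini-Hochberg adjustment ran over all kept genes. Standard errors were derived from edgeR's log2 fold change and F statistic (their ratio, with F under a square root). DESeq2 1.42.0 and limma 3.58.1 served as alternatives. The pups are labelled as separate mice, and the spread between libraries is the error given.

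The members and lists were chosen with earlier results of these data known. Values by library are given for every called member and for Nfe2l2, Keap1, Nqo1, Hmox1, Slc7a11, Gclc, Gclm, Gpx4, Sod2, Cat, Txnrd1, G6pdx and Fth1. Prdx3 and Ftl1 were added to these after their values were seen. Of other pathway genes, up to 3 with the smallest p per list were named. The listed symbols Tf and Ahsp were not matched to a row. Promoters come from RefSeq on GRCm38.p6, and coding stretches from GENCODE M21 transcripts. Near-identical copies were sought with BLAST among those transcripts. Sequences of the proteins were not used here.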

Additional observations from a re-analysis of the deposited data

Results flagged for a closer look

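In groups of 5 libraries, a library was singled out where its gap to the nearest other, divided by the group's whole range, was above 0.71. This was asked of 88 groups (44 genes in 2 groups) and met in 5, where chance alone gives about 1 in 20.

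Untreated library 1 was the high one for Hmox1, at 10.8 CPM with the next untreated library at 7.76 and the lowest at 6.85 (gap over range 0.771). It was the high one for Ftl1 as well, at 457 CPM with the next at 388 and the lowest at 365 (0.755). In the treated group, library 7 was low for Ftl1, at 310.3 CPM with the next at 348 and the highest at 362 (0.727). Treated library 6 was high for Cat, at 92.8 CPM with the next at 81.4 and the lowest at 78.0 (0.770). Treated library 8 was low for Gsr, at 31.8 CPM with the next at 38.6 and the highest at 41.2 (0.727).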

How the results depend on the processing

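No paired analysis was possible because the 2 groups share no pup numbers. Of 26 alternatives, 1 (leaving out untreated library 1 and treated library 6 together) was chosen after seeing the data. All 8 called members kept their direction in all 26. Against 6 members higher and 2 lower, library totals gave 1 higher, DESeq2 gave 10 higher, and the fit without a count filter gave 1 lower. A covariate for red blood cells, astrocytes or myelin gave 0 higher and 0 lower, with 943, 33 and 0 of all genes past the threshold against 1926. With those covariates 14, 4 and 3 members had an unadjusted p under 0.05, again with the share of all genes not counted. The microglia covariate gave 2 higher, 0 lower and 493 of all genes, and the fibroblast covariate gave 1 lower. Libraries of the shared name prefix gave 0 higher, 0 lower and 105 of all genes. Thinning every library to the smallest total gave 0 lower (7 higher). Leaving out untreated library 1 and treated library 6 together gave 1 higher, 1 lower and 1148 of all genes. Leaving out each library in turn gave 1 to 8 higher, 0 to 2 lower and 1084 to 2343 of all genes, the fewest members without untreated library 3 (1 higher, 0 lower). The members without overlap between groups numbered 6, and 1 with library totals. The cause of these changes was not tested. Of 1143 pairs of a gene and an alternative, 980 stayed on the same side of the threshold in the same direction, 95 lost a call, 18 gained one, and 50 changed sign without a call. Only the 8 called members could lose a call. Of 26 alternatives, Gsta4 missed the threshold in 4, Prdx5 in 9, Slc3a2 in 10 and Srxn1 in 12. Slc7a11, Gpx4, Blvrb and Fth1 each missed it in 15. Cat passed in 6 alternatives, and 28 of the 36 uncalled members passed in none.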
